A study of Mus musculus with 4 samples.

Results

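The nuclear receptors are the family of transcription factors treated here, as 40 genes taken by the gene name that the array design gives them. They were 40 of 37325 gene names on the array and were read by 88 of its 56605 probes. Expression was measured in scraped epithelium of mouse small intestine on 1-colour arrays of 60-base probes, with 1 array for each of 4 groups. The groups were ileum of Tcrbd-/-, DAOG181R/G181R mice (G181R ileum), ileum of Tcrbd-/-, DAOwt/wt mice (wild-type ileum), jejunum of Tcrbd-/-, DAOG181R/G181R mice (G181R jejunum) and jejunum of Tcrbd-/-, DAOwt/wt mice (wild-type jejunum). All mice were on the C57BL/6J background and 9 weeks old, and all lacked the beta and delta chains of the T cell receptor, so the wild-type mice too had no T cells with such a receptor. DAO is D-amino acid oxidase, an enzyme that oxidises D-amino acids, and G181R is known as a loss-of-activity form of it carried on both copies. Array signal cannot check a substitution of 1 amino acid, so the genotype labels were taken as given. Each array held RNA pooled from 5 mice, so the values below have no spread between animals and no p-value, and with 1 array a group an array and its group cannot be told apart.

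Nuclear receptors bind DNA through a pair of zinc fingers and switch their target genes on or off, most of them according to a small fat-soluble ligand such as a steroid, thyroid hormone, vitamin D, retinoic acid, an oxysterol, a bile acid or a fatty acid. Many of them bind only as a pair with a retinoid X receptor, and coregulators such as the PGC-1 and NCoA proteins carry the signal to chromatin. In the small intestine the family is known for sensing absorbed lipid, foreign compounds and vitamins, and its HNF4 members keep the enterocyte genes on. The question put to the arrays was which of these genes differed with the DAO genotype in each segment and between the segments in each genotype.

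Signals are given as scaled signals, on which the 75th percentile of each array is 100, and a gene stands by its brightest probe. Differences are on the log2 scale. A gene is called measured where the scanner software flagged its probe as well above background on each of the arrays compared, and different where the fold was 2 or more. Of the 40 genes, 35 were measured on all 4 arrays. Between replicate spots of 1 probe the SD of a log2 difference had a median of 0.0388 to 0.0427 for scaled signals over 100, 0.102 to 0.114 for signals of 25 to 100 and 0.186 to 0.265 for signals under 25. These medians rested on 280 to 284 probes over 100, on 5 to 10 at 25 to 100 and on only 6 to 7 under 25. The SD leaves out the spread between mice, pools and labelling reactions. Probes well above background numbered 32505 to 34187 on the 4 arrays, and 0 spots were saturated.

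The scraped tissue carried epithelial RNA on all 4 arrays and RNA of other cell types as well. The summed scaled signal of 6 epithelial markers was 102519 in G181R ileum, 107457 in wild-type ileum, 73277 in G181R jejunum and 73420.1 in wild-type jejunum. That of 8 enterocyte markers was 130759 in G181R ileum, 142830.0 in wild-type ileum, 333857 in G181R jejunum and 369781 in wild-type jejunum. Smooth muscle markers, which a pure epithelial sample would lack, summed to 4408 in G181R ileum, 10576 in wild-type ileum, 5694 in G181R jejunum and 5195 in wild-type jejunum over 12 genes.

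In ileum more of the receptors were lower than higher in G181R mice, and the lowest of those with a clear signal were Ppara, Thrb, Vdr, Thra, Nr6a1 and Rara. Ppara, the receptor that turns on fatty acid burning, was 2.19-fold lower. Of 35 measured members, 26 were lower and 9 higher, with a median log2 difference of -0.22. Over all 21608 measured genes the median was 0.03, and 46.8% were lower. At the 2-fold threshold 0 members were higher and 2 were lower (Ppara and Nr2e3), 5.71% of the members in either direction. Over all measured genes 5.21% were past that threshold, 2.0% higher and 3.21% lower, so the members' share lay near the background. At 1.5-fold, 0 members were higher and 7 lower, 20% of the members. Of all genes 15.5% were past that fold, 6.79% higher and 8.66% lower. Nr6a1 and Rara only just passed it, at -0.589 and -0.587. With another background correction (normexp), Rara (-0.567), Nr6a1 (-0.550), Thrb (-0.503) and Nr2e3 (-0.317) fell short of 1.5-fold. Ppara (-1.07), Vdr (-0.67) and Thra (-0.61) stayed past it.

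In jejunum the same comparison gave smaller differences. Of 35 measured members, 24 were lower and 11 higher in G181R mice, with a median of -0.15, against a median of -0.01 over all 21354 measured genes, of which 51.7% were lower. No member reached 2-fold: 0 of 35 were higher and 0 lower, where 1.51% of all genes were past that threshold, 0.763% higher and 0.749% lower. At 1.5-fold, Nr4a1 was higher and Hnf4g lower, 5.71% of the members, where 7.47% of all genes were past that fold, 3.39% higher and 4.08% lower.

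**Figure D1:**
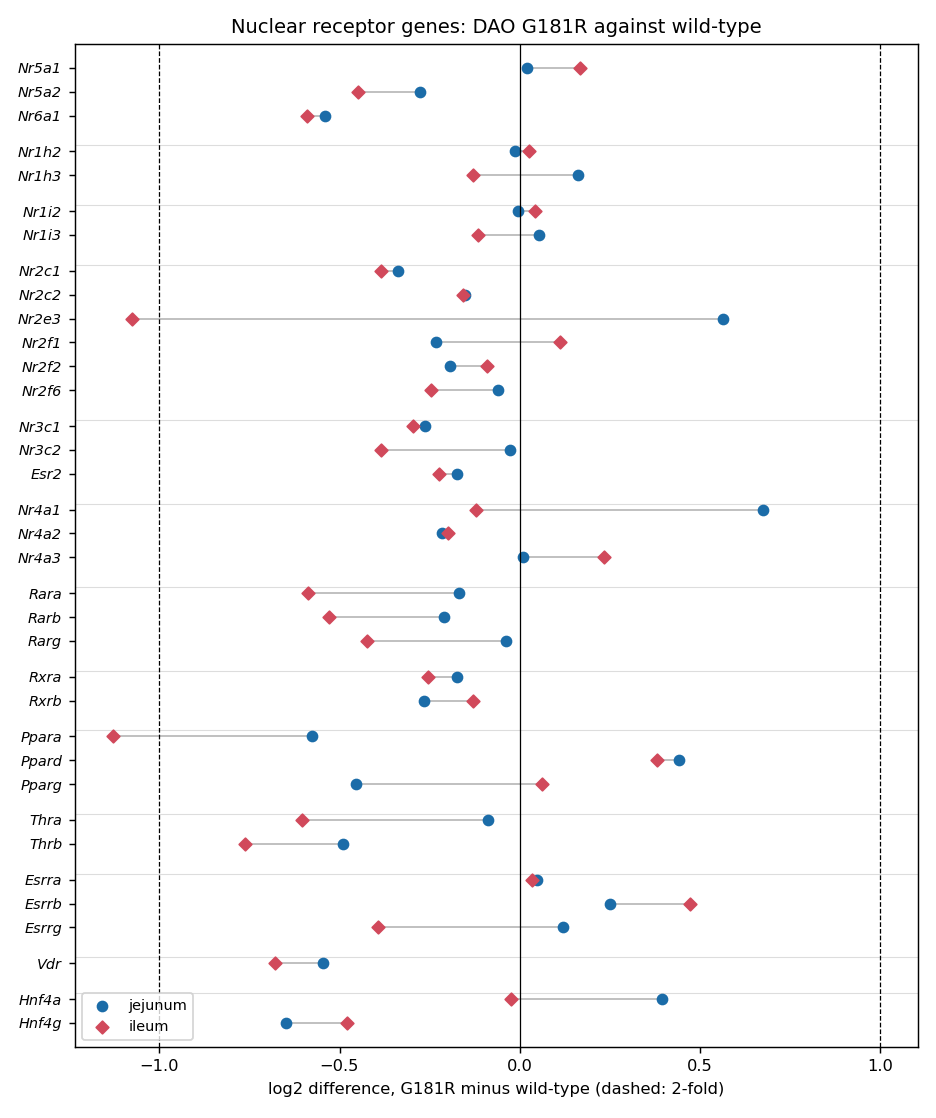
Log2 difference of DAO G181R minus wild-type for the 35 measured nuclear receptor genes, grouped by subfamily, with jejunum as blue circles and ileum as red diamonds (1 array of pooled RNA per group, no error bars). Most points lie left of 0, Ppara and Nr2e3 pass the dashed 2-fold line in ileum, and no point passes it in jejunum.

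Beside these differences, the markers of several other cell types moved in ileum. The smooth muscle list was lower in G181R ileum for 11 of 11 measured genes, with a median of -2.51. The list had 9 genes at least 2-fold lower there, where 3.21% of all measured genes were. Its median in jejunum was 0.17, with 10 of 11 genes higher and Lmod1 not well above background on either jejunum array. The adipocyte list had a median of -1.04 in ileum and -0.43 in jejunum, and its 8 genes summed to 2781 in G181R ileum, 5694 in wild-type ileum, 6966 in G181R jejunum and 7834 in wild-type jejunum. Nearly all of both jejunal sums came from Cidec, at 6635 in G181R jejunum and 7352 in wild-type jejunum. Fibroblast markers had a median of -0.64 in ileum (7 of 8 lower) and -0.26 in jejunum (7 of 7 lower, Dpt not well above background on either array), and summed to 1646 in G181R ileum, 1945 in wild-type ileum, 4527 in G181R jejunum and 4974 in wild-type jejunum. Most of both jejunal sums came from Fbln1, at 3238 in G181R jejunum and 3451 in wild-type jejunum. Nerve and glia markers were at -0.52 in ileum (5 of 6 lower) and 0.09 in jejunum (2 of 6 lower), with S100b not well above background on any array, and summed to 232 in G181R ileum, 366 in wild-type ileum, 223 in G181R jejunum and 236 in wild-type jejunum. Markers of macrophages and dendritic cells were at 0.26 in ileum (7 of 7 higher) and -0.08 in jejunum, and summed to 1509.7 in G181R ileum, 1261 in wild-type ileum, 2462 in G181R jejunum and 2475 in wild-type jejunum. B cell markers were at 0.72 in ileum (5 of 6 higher) and -0.79 in jejunum (5 of 5 lower), with Blk not well above background on any array, and summed to 1111 in G181R ileum, 691 in wild-type ileum, 172 in G181R jejunum and 265 in wild-type jejunum. Of 6 neutrophil markers 3 were measured in each segment, with a median of 0.08 in ileum (2 higher) and 0.07 in jejunum (3 higher). Their genes summed to 9744 in G181R ileum, 9108 in wild-type ileum, 12505 in G181R jejunum and 11889 in wild-type jejunum, nearly all of it from Csf3r. S100a8 and S100a9, abundant calcium-binding proteins of neutrophils, were well above background in G181R ileum alone. S100a9 had a scaled signal of 55.3 in G181R ileum and 0.903 in wild-type ileum, S100a8 had 14.0 and 0.807, and Ly6g, measured on all arrays, was at 1.86 in ileum and 0.14 in jejunum. The enterocyte list was at -0.08 in ileum and -0.17 in jejunum, and the epithelial list at -0.05 and 0.01. In such bulk tissue, fewer cells of a type and less RNA per cell cannot be told apart, and the part of these cell types in the receptors' differences was not tested.

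The peroxisome proliferator-activated receptors (PPARs) are fatty acid sensors that drive lipid uptake, storage and oxidation. Ppara encodes PPAR alpha, which in enterocytes responds to dietary fat. Its scaled signal was 409.6 in G181R ileum, 895 in wild-type ileum, 884 in G181R jejunum and 1318 in wild-type jejunum. The G181R array was the lower one in both segments, and G181R ileum was the lowest of the 4. The log2 difference between genotypes was -1.13 in ileum and -0.58 in jejunum. A second Ppara probe gave -1.32 and -0.55, so both probes put the gene past 2-fold in ileum. The first probe lies on chromosome 15 at chr15:85632110-85632169 and the second at chr15:85637193-85637252 in mm9. Their first 30 bases, from the scanner files, are shown because the member with the largest ileal difference rests on them.
Ppara probe 1: ctttgaaaacctacaagtcaaggtgtggcc
Ppara probe 2: cctgtaagctgatgaatgtaaagagttaat

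Ppard, which encodes the widely expressed PPAR delta, ran the other way. Its probe lies at chr17:28438298-28438357 in mm9. Its scaled signal was 2349 in G181R ileum, 1804 in wild-type ileum, 2185 in G181R jejunum and 1609.7 in wild-type jejunum. Both G181R arrays lay above both wild-type arrays, by 0.38 in ileum and 0.44 in jejunum on the log2 scale. Pparg encodes PPAR gamma, the receptor of fat cells, which is also found in gut epithelium. Its brightest probe lies at chr6:115440213-115440272 in mm9. Its scaled signal was 201 in G181R ileum, 193 in wild-type ileum, 376 in G181R jejunum and 516 in wild-type jejunum. Its log2 difference was 0.06 in ileum and -0.46 in jejunum. Of the 3 PPAR genes, only Ppara was lower in G181R mice in both segments and only Ppard was higher past 0.3 in both.

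Genes known as PPAR targets were mostly lower in G181R mice. Of 18 measured targets in ileum, 17 were lower and 5 of them at least 2-fold, with a median of -0.55. Of 19 in jejunum, 17 were lower and 2 at least 2-fold, with a median of -0.15. Over all measured genes 3.21% were at least 2-fold lower in ileum and 0.749% in jejunum. The list was chosen with earlier results of these data known, so these counts describe it and are no independent evidence. Angptl4, a secreted inhibitor of lipoprotein lipase, had a scaled signal of 408 in G181R ileum, 3574 in wild-type ileum, 3216 in G181R jejunum and 9089.9 in wild-type jejunum. Its differences were -3.13 in ileum and -1.50 in jejunum. Pdk4, which blocks pyruvate dehydrogenase when cells turn to fat as fuel, differed by -2.63 in ileum and -2.02 in jejunum, and Plin2, a coat protein of lipid droplets, by -1.25 in ileum. Acadl, a long-chain acyl-CoA dehydrogenase, was the one measured target that was higher in G181R ileum, at 0.91, and it was at 0.50 in jejunum. Cyp4a14 was not well above background on any array.

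Vdr encodes the vitamin D receptor, which turns on calcium uptake in the intestine. Its brightest probe lies at chr15:97685136-97685195 in mm9. Its scaled signal was 1468 in G181R ileum, 2350.4 in wild-type ileum, 2700.4 in G181R jejunum and 3939 in wild-type jejunum. Each G181R array lay below the wild-type array of its segment, with a log2 difference of -0.68 in ileum and -0.54 in jejunum. A second probe gave -0.71 and -0.66. Of 8 genes listed as its targets, 6 were measured, and 5 of those were lower in G181R mice in each segment, with a median of -0.85 in ileum (-0.34 with no background filter) and -0.28 in jejunum. S100g, the calcium-binding protein calbindin of enterocytes, had a scaled signal of 159 in G181R ileum, 549 in wild-type ileum, 269 in G181R jejunum and 447 in wild-type jejunum. Its difference was -1.79 in ileum and -0.73 in jejunum. Slc30a10, a manganese exporter, was at -1.19 in ileum and 0.01 in jejunum, and Cyp3a11, a drug-metabolising enzyme also listed for the xenobiotic receptors, at -1.43 and -0.96. Trpv6 was at -0.09 in ileum and -0.46 in jejunum, and Slc37a2, the only measured target higher in G181R ileum, at 0.25 and -0.10. Cyp24a1 and Trpv5 were not well above background on any array.

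The thyroid hormone receptors, which bind triiodothyronine, are Thra and Thrb. Their brightest probes lie at chr11:98626356-98626415 (Thra) and chr14:18868800-18868859 (Thrb) in mm9. The scaled signal of Thra was 755 in G181R ileum, 1148 in wild-type ileum, 2431 in G181R jejunum and 2585 in wild-type jejunum. The genotype difference was -0.60 in ileum and -0.09 in jejunum, and 2 further probes of the gene gave -0.77 and -0.88 in ileum and -0.27 and -0.19 in jejunum. Thrb had a scaled signal of 64.4 in G181R ileum, 109 in wild-type ileum, 131 in G181R jejunum and 184 in wild-type jejunum. G181R was the lower genotype in both segments, at -0.76 in ileum and -0.49 in jejunum, and a second, dim probe gave -0.71 and -0.50. Among 7 measured genes listed as targets, 5 were lower in G181R ileum, with a median of -0.40, and 6 in G181R jejunum, with a median of -0.09. Dio1, the enzyme that makes active thyroid hormone from its precursor, had the lowest ileal value, -2.02. Alpi, intestinal alkaline phosphatase, was at -1.0 in ileum and -0.34 in jejunum, while Bcl3 was at 0.53 and 0.59. Ucp1 and Sfrp2 were not well above background on any array.

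Promoter windows of 3 of these lower members are shown, as RefSeq has them in GRCm38.p6 (300 bases each, 250 before to 50 after the annotated start, written 5′ to 3′ on the gene's strand). They lie at chr15:85735526-85735825 on the plus strand (Ppara), chr15:97908247-97908546 on the minus strand (Vdr), and chr14:17660710-17661009 and chr14:17981394-17981693 on the plus strand (Thrb). Capitals mark 3 motifs searched on both strands: AGGTCA (reverse complement TGACCT), the half-site that many nuclear receptors bind, GGGCGG (reverse complement CCGCCC), an Sp1 site, and CACGTG, an E-box that is its own reverse complement. Matches of the other motifs can share end letters with CACGTG, and neighbouring GGGCGG matches can overlap, as in the first Thrb window.
Ppara window: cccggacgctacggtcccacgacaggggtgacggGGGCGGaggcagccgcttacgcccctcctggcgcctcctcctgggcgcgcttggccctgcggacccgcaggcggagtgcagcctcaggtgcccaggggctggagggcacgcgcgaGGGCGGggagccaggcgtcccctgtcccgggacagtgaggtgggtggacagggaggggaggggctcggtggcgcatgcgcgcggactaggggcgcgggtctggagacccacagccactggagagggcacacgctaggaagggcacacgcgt
Vdr window: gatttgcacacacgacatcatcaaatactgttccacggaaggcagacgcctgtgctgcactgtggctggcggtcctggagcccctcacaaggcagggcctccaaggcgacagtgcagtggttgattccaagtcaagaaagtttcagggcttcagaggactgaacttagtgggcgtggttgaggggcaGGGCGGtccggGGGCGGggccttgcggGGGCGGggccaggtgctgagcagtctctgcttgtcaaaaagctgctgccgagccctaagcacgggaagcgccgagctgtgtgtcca
Thrb window 1: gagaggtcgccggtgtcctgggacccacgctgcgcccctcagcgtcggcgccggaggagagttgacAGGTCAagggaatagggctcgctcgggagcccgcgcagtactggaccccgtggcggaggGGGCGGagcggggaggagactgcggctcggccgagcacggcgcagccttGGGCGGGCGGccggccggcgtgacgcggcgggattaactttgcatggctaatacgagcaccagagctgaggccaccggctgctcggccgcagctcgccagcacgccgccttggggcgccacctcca
Thrb window 2: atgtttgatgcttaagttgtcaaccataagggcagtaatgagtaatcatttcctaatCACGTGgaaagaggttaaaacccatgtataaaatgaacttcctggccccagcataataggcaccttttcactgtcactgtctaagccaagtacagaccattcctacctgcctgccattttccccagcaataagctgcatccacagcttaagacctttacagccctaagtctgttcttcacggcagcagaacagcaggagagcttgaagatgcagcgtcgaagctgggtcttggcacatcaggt

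The Ppara window held 2 GGGCGG matches and the Vdr window 3, with 0 AGGTCA in either, and the first Thrb window held 1 AGGTCA and 3 GGGCGG. Windows were at hand for 36 of the 40 members (57 windows). AGGTCA stood in 10 of them (9 members), where 16.3% of 32851 windows of all genes held it. GGGCGG stood in 26 (21 members), where 35.7% of all windows held it, and CACGTG in 5 (4 members: Esr2, Nr1i3, Rara and Thrb), where 7.15% did. A match describes these letters only, and a window without one says nothing about a factor.

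The retinoic acid receptors bind the active form of vitamin A. The brightest Rara probe lies at chr11:98836197-98836256 in mm9. Rara had a scaled signal of 536 in G181R ileum, 804 in wild-type ileum, 919.6 in G181R jejunum and 1034 in wild-type jejunum. The difference was -0.59 in ileum and -0.17 in jejunum, and the second Rara probe gave -0.58 and -0.00. Rarg had a scaled signal of 60.4 in G181R ileum, 81.0 in wild-type ileum, 34.0 in G181R jejunum and 34.9 in wild-type jejunum, with genotype differences of -0.42 and -0.04. Rarb, dim on all arrays, was at -0.53 in ileum and -0.21 in jejunum. By their brightest probes all 3 genes were thus lower in G181R ileum, though with normexp correction Rarb was at only -0.03 there. In jejunum no common direction was clear, since Rarg and the second Rara probe were level between genotypes. A second Rarb probe was well above background in G181R jejunum alone, at 4.75 against 2.91 in wild-type jejunum. Of 11 measured genes listed as retinoic acid targets, a list that contains Rarb itself, 9 were lower in G181R ileum (median -0.25) and 6 in G181R jejunum (median -0.21). Cyp26b1, which degrades retinoic acid, was at -2.59 in ileum and -0.94 in jejunum. Lrat, which stores retinol as its ester, was at -1.46 and -0.52. Tgm2, tissue transglutaminase, went the other way, at 1.02 in ileum and 1.37 in jejunum, and Cyp26a1 was not well above background on any array.

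The retinoid X receptors are the common partners of the PPAR, LXR, vitamin D, thyroid and retinoic acid receptors. Rxra had a scaled signal of 4747 in G181R ileum, 5667 in wild-type ileum, 5655 in G181R jejunum and 6379 in wild-type jejunum. It was lower in G181R mice in both segments by less than 1.5-fold, at -0.26 in ileum and -0.17 in jejunum. A second, dim Rxra probe gave -0.54 and -0.20. Rxrb was at -0.13 in ileum and -0.26 in jejunum by its brightest probe, while its other probes gave 0.07 and -0.35 in ileum and 0.02 and -0.26 in jejunum. Rxrg was not well above background on any array.

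The xenobiotic receptors Nr1i2 (PXR) and Nr1i3 (CAR) sense drugs and other foreign compounds and turn on the enzymes and pumps that clear them. The Nr1i2 probe lies at chr16:38248745-38248804 in mm9. Nr1i2 had a scaled signal of 756 in G181R ileum, 734 in wild-type ileum, 1573 in G181R jejunum and 1579 in wild-type jejunum. The 2 genotypes lay side by side in each segment, at 0.04 in ileum and -0.01 in jejunum. Nr1i3 had a scaled signal of 31.3 in G181R ileum, 33.9 in wild-type ileum, 357 in G181R jejunum and 344 in wild-type jejunum. Its genotype differences were -0.12 in ileum and 0.05 in jejunum, while both ileum arrays lay far below both jejunum arrays.

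Genes listed as targets of PXR and CAR were mostly lower in G181R mice. Of 14 measured targets in ileum, 11 were lower and 9 of them at least 2-fold, with a median of -1.35. Of 14 in jejunum, 13 were lower and 1 at least 2-fold, with a median of -0.59. Of all measured genes, 3.21% were at least 2-fold lower in ileum and 0.749% in jejunum. The list was chosen with earlier results of these data known, so these counts describe it and are no independent evidence. Cyp2c55, a cytochrome P450, had a scaled signal of 43.6 in G181R ileum, 969 in wild-type ileum, 444 in G181R jejunum and 1279 in wild-type jejunum, a difference of -4.48 in ileum and -1.53 in jejunum. In ileum, Cyp3a25 was at -3.25 and Abcc2, an export pump for conjugates, at -2.18. In jejunum, Cyp3a11 was at -0.96 and Gstm1, a glutathione transferase, at -0.93. Alas1, the first enzyme of haem synthesis, was at 0.43 in ileum and 0.06 in jejunum.

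The oxysterol receptors Nr1h2 (LXR beta) and Nr1h3 (LXR alpha) turn on cholesterol export and fatty acid synthesis. Nr1h2 had a scaled signal of 1642 in G181R ileum, 1613 in wild-type ileum, 2419 in G181R jejunum and 2444 in wild-type jejunum, a genotype difference of 0.03 in ileum and -0.01 in jejunum. Nr1h3 was at -0.13 in ileum and 0.16 in jejunum, and its second probe at -0.17 and 0.17. Of 12 measured targets, 8 were lower in G181R ileum (median -0.14) and 10 in G181R jejunum (median -0.27). Abcg8 and Abcg5, the paired pump that returns sterols to the gut lumen, were at -0.76 and -0.61 in ileum and -0.89 and -0.42 in jejunum. Scd1, a fatty acid desaturase, was at -1.16 in ileum, Fasn, fatty acid synthase, at 0.34 in ileum and 0.49 in jejunum, and Abca1, a cholesterol exporter, at 0.94 in jejunum.

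The HNF4 receptors keep enterocyte genes active and bind fatty acids. Hnf4a had a scaled signal of 17564 in G181R ileum, 17856 in wild-type ileum, 17248.0 in G181R jejunum and 13108 in wild-type jejunum. Wild-type jejunum was the low array of the 4, and the genotype difference was -0.02 in ileum and 0.40 in jejunum, with a second probe at -0.18 and 0.30. The Hnf4g probe lies at chr3:3657177-3657236 in mm9. Hnf4g, the gut-enriched paralog, had a scaled signal of 339 in G181R ileum, 474 in wild-type ileum, 979 in G181R jejunum and 1536 in wild-type jejunum. It was lower in G181R mice in both segments, at -0.48 in ileum and -0.65 in jejunum, the lowest value of any member in jejunum. Of 17 genes listed as HNF4 targets, 13 were lower in G181R ileum (median -0.12) and 15 in G181R jejunum (median -0.11). Apoc2, a cofactor of lipoprotein lipase, was at 1.58 in ileum, and Apoa1, the main protein of high-density lipoprotein, at -0.98 in ileum and -0.40 in jejunum.

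The estrogen-related receptors have no known hormone and drive mitochondrial genes together with PGC-1. Esrra had a scaled signal of 7360.3 in G181R ileum, 7192 in wild-type ileum, 10788 in G181R jejunum and 10441 in wild-type jejunum, with genotype differences of 0.03 and 0.05. Esrrg had a scaled signal of 17.5 in G181R ileum, 23.0 in wild-type ileum, 44.1 in G181R jejunum and 40.6 in wild-type jejunum, or -0.39 in ileum and 0.12 in jejunum, where other probes gave -0.16 and 0.24. Esrrb, dim on all arrays, was at 0.47 and 0.25. Of 16 measured genes listed as targets, a list that contains Esrra, 14 were higher in G181R ileum (median 0.11) and 9 in G181R jejunum (median 0.02). In each segment 0 of them were past 2-fold, where 5.21% of all measured genes were in ileum and 1.51% in jejunum. Cycs, cytochrome c, was the highest, at 0.41 in ileum and 0.18 in jejunum. Acadm, a fatty acid dehydrogenase that PPAR alpha also controls, was the lowest, at -0.54 and -0.20.

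Among the coregulators, Ppargc1a, which encodes PGC-1 alpha, had a scaled signal of 124 in G181R ileum, 249 in wild-type ileum, 1226 in G181R jejunum and 1637 in wild-type jejunum. Its difference was -1.0 in ileum and -0.42 in jejunum. Its relative Ppargc1b was at 0.36 in ileum and 0.29 in jejunum. Ncoa7, a coactivator with a short form that interferon is known to induce, was at 1.07 in ileum and -0.54 in jejunum. Of the 20 listed coregulators, all measured, 12 were lower in G181R mice in each segment, with medians of -0.08 in ileum and -0.15 in jejunum. In ileum 1 was at least 2-fold higher (Ncoa7) and 1 at least 2-fold lower (Ppargc1a).

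**Figure D2:**
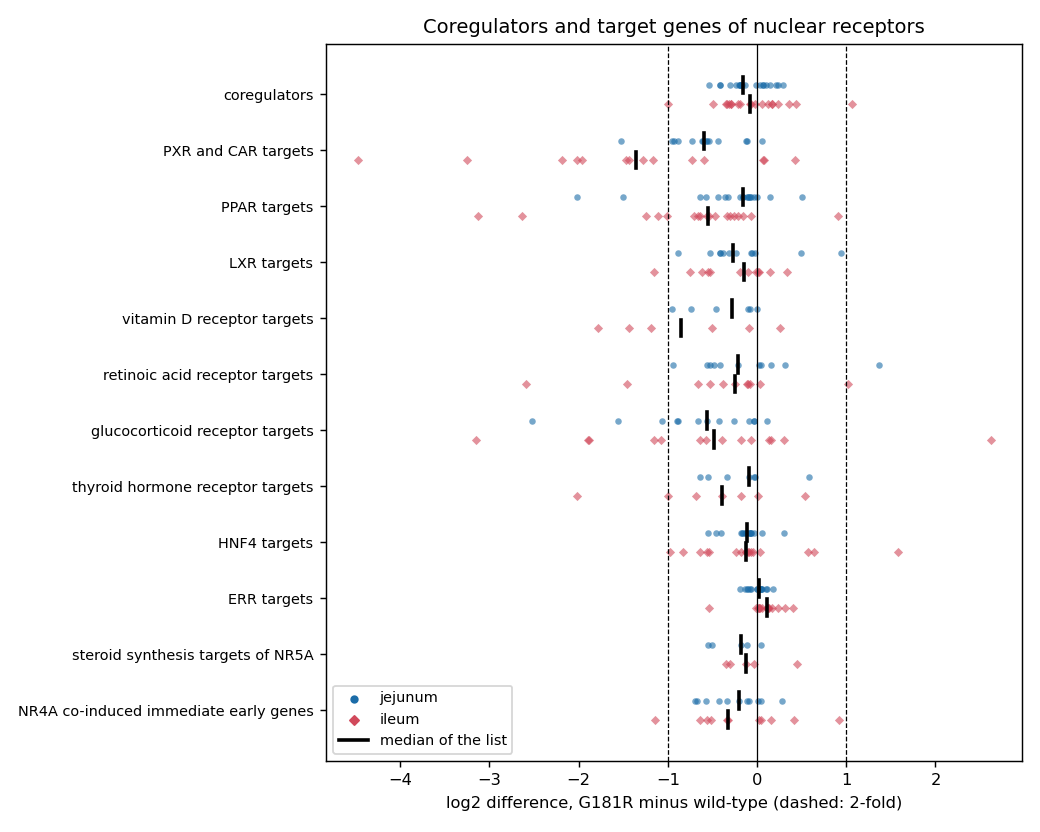
Log2 difference of DAO G181R minus wild-type for the measured genes of 12 lists of coregulators and known targets, with jejunum as blue circles, ileum as red diamonds and the median of each list as a black bar (1 array per group). All 12 lists were chosen with earlier results of these data known. The lists of PXR and CAR targets and vitamin D receptor targets have the lowest ileal medians, -1.35 and -0.85 (the second is -0.34 with no background filter), and the list of ERR targets alone has an ileal median above 0 (0.11).

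The steroid receptors bind adrenal and sex steroids. Nr3c1, the glucocorticoid receptor, had a scaled signal of 2362 in G181R ileum, 2897 in wild-type ileum, 2249 in G181R jejunum and 2701 in wild-type jejunum. It was lower in G181R mice, at -0.29 in ileum and -0.26 in jejunum. Nr3c2, the mineralocorticoid receptor, was at -0.38 in ileum and -0.03 in jejunum. Its other probes gave -0.43 and -0.29 in ileum and -0.33 and -0.11 in jejunum. Of the genes listed as glucocorticoid receptor targets, 10 of 14 were lower in G181R ileum (median -0.48) and 12 of 13 in G181R jejunum (median -0.56). Pck1, which commits carbon to gluconeogenesis, was at -1.89 in ileum and -2.52 in jejunum, and G6pc, which releases free glucose, at -3.15 and -1.56. Sgk1, a kinase that raises sodium uptake, was at -1.89 in ileum. Tat, tyrosine aminotransferase, had a scaled signal of 876 in G181R ileum, 142 in wild-type ileum, 23.2 in G181R jejunum and 21.6 in wild-type jejunum, and stood at 2.62 in ileum and 0.11 in jejunum.

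The sex steroid receptors were at or near background, apart from 1 probe for Esr2. Esr1 (estrogen receptor alpha) has 7 probes, and its brightest was well above background only in wild-type ileum, where its scaled signal was 4.59. That made it at least 1.32-fold lower in G181R ileum, counted against the dimmest probe that was well above background on the G181R array. Pgr (the progesterone receptor) had 1 probe seen only in G181R ileum, at least 1.40-fold higher there than in wild-type ileum, and another seen only in wild-type ileum, at least 1.74-fold lower in G181R ileum, so its probes did not settle a direction. Esr2 (estrogen receptor beta) read between 707 and 827 on the 4 arrays at 1 probe, with genotype differences of -0.22 in ileum and -0.17 in jejunum, while its other probe was not well above background on any array. The bright probe shares a stretch of 20 bases, as the reverse complement, with a probe for Spag17os, and it was the only 1 of the 88 member probes to share 20 bases with a probe of another gene. The bright probe lies at chr12:77221426-77221485 and the other at chr12:77222311-77222370 in mm9. Their first 30 bases are shown so that the probe behind the Esr2 signal can be traced.
Esr2 bright probe: ttaagagtgccacttcccatgggccaagca
Esr2 other probe: gactgtagaacggtgtggtcatcaaatcga

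The NR4A receptors are immediate early genes that stress and mitogens induce within minutes, and they act without a known hormone. Nr4a1 had a scaled signal of 82.0 in G181R ileum, 89.2 in wild-type ileum, 64.6 in G181R jejunum and 40.5 in wild-type jejunum. Wild-type jejunum was the lowest of the 4, and the genotype difference was -0.12 in ileum and 0.67 in jejunum, the highest value of any member in jejunum. With normexp background correction, which draws dim signals together, the jejunal value was 0.38. Nr4a2 was at -0.20 in ileum and -0.22 in jejunum (-0.36 and -0.01 by another probe). Nr4a3 was at 0.23 and 0.01 (0.01 in ileum by another probe). Of 11 other measured immediate early genes, 6 were lower in G181R ileum (median -0.32) and 8 in G181R jejunum (median -0.21). Fosb was at -1.14 in ileum and -0.67 in jejunum, and Ier2 was the highest in jejunum, at 0.28. In ileum 5 of the 11 were higher, and Dusp2 was the highest, at 0.92, with -0.69 in jejunum.

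The remaining members are orphan receptors of the NR2, NR5 and NR6 groups. The brightest Nr6a1 probe lies at chr2:38578922-38578981 in mm9. Nr6a1, known for its role in germ cells and early embryos, had a scaled signal of 192 in G181R ileum, 289 in wild-type ileum, 299 in G181R jejunum and 435 in wild-type jejunum. It was lower in G181R mice in both segments, at -0.59 in ileum and -0.54 in jejunum. Nr5a2 (LRH-1), which supports crypt renewal and local steroid synthesis in the gut, was at -0.45 in ileum and -0.28 in jejunum. Nr2f6 had a scaled signal of 1652 in G181R ileum, 1957 in wild-type ileum, 2412 in G181R jejunum and 2512 in wild-type jejunum, or -0.25 and -0.06. Nr2c1 was at -0.38 in ileum and -0.34 in jejunum (0.00 by another probe), and Nr2c2 at -0.16 and -0.15 (0.05 in jejunum by another probe). Nr2f1 was at 0.11 and -0.23, and Nr5a1 (SF-1), the regulator of adrenal and gonadal steroid synthesis, at 0.17 and 0.02. Of 5 measured steroid synthesis genes that NR5A receptors control, 4 were lower in G181R mice in each segment, with medians of -0.13 in ileum and -0.18 in jejunum.

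Nr2e3, a receptor known from photoreceptors of the eye, was dim on all 4 arrays. Its scaled signal was 8.81 in G181R ileum, 18.6 in wild-type ileum, 13.9 in G181R jejunum and 9.37 in wild-type jejunum. The genotype difference was -1.07 in ileum and 0.56 in jejunum. Signals this dim have the widest spread between spots, and with normexp correction the values were -0.32 and 0.08, so the 2-fold count in ileum then held Ppara alone. Nr0b1 and Rorb, like Rxrg, were not well above background at any probe on any array.

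**Figure D3:**
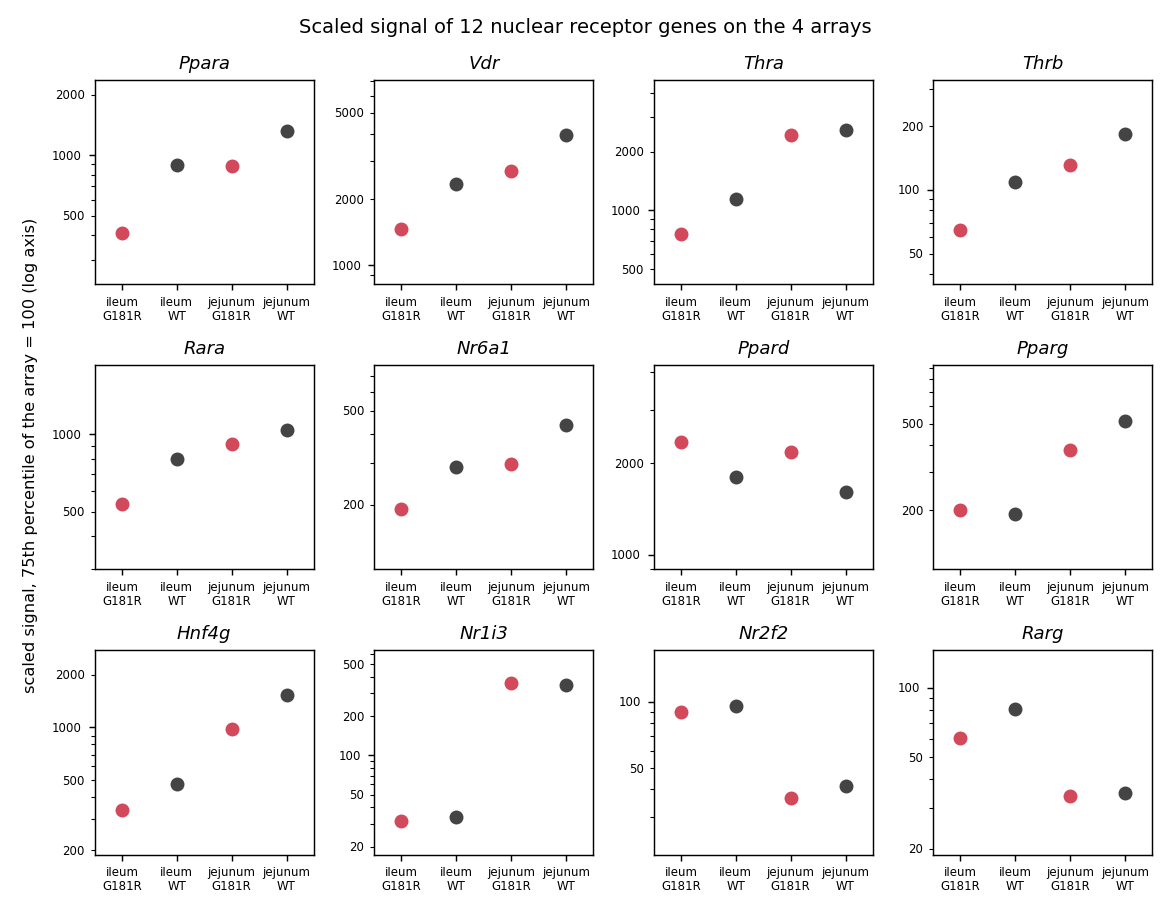
Scaled signal (log axis, 75th percentile of the array = 100) of 12 nuclear receptor genes on each of the 4 arrays, G181R in red and wild-type in dark grey (1 point is 1 array of RNA pooled from 5 mice). Ppara, Vdr, Thrb and Nr6a1 are lower on the G181R array of both segments, Ppard is higher on both, and Nr1i3, Thra and Hnf4g are lower in ileum than in jejunum.

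The comparison of segments asks which receptors differ along the small intestine. In ileum, CAR, Hnf4g, thyroid hormone receptor alpha and PXR were at least 2-fold lower than in jejunum in both genotypes, and Nr2f2 was at least 2-fold higher in both. The PXR gene (Nr1i2) lay close to the threshold, at -1.06 in G181R mice and -1.10 in wild-type mice, and quantile normalization put it under 2-fold in both, at -0.97 and -0.95. In G181R mice normexp correction did so too, at -0.99. The mean of all probes put Thra under 2-fold in wild-type mice, at -0.98. In wild-type mice 25 of 35 measured members were lower in ileum and 10 higher, with a median log2 difference of -0.39, where all 20879 measured genes had a median of -0.05. In wild-type mice 3 members were at least 2-fold higher (Rarg, Nr2f2 and Nr4a1) and 5 at least 2-fold lower (Nr1i3, Hnf4g, Pparg, Thra and Nr1i2), 22.9% of the members. Over all genes 16.5% were past that threshold, 7.42% higher and 9.11% lower. In G181R mice 26 of 35 members were lower in ileum and 9 higher, with a median of -0.44, where all 21605 measured genes had a median of -0.03. There 1 member was at least 2-fold higher (Nr2f2) and 7 at least 2-fold lower (Nr1i3, Thra, Hnf4g, Esrrg, Ppara, Nr1i2 and Thrb). Of all genes, 16.0% were past that threshold, 7.30% higher and 8.73% lower. Among these 7, Thrb fell short of 2-fold with array median scaling (-0.96) and with normexp correction (-0.71), and Esrrg with normexp (-0.65). At 1.5-fold, 17 members differed in G181R mice (3 higher and 14 lower), where 34.8% of all genes did, and 16 in wild-type mice (5 higher and 11 lower), where 35.8% did.

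**Figure D4:**
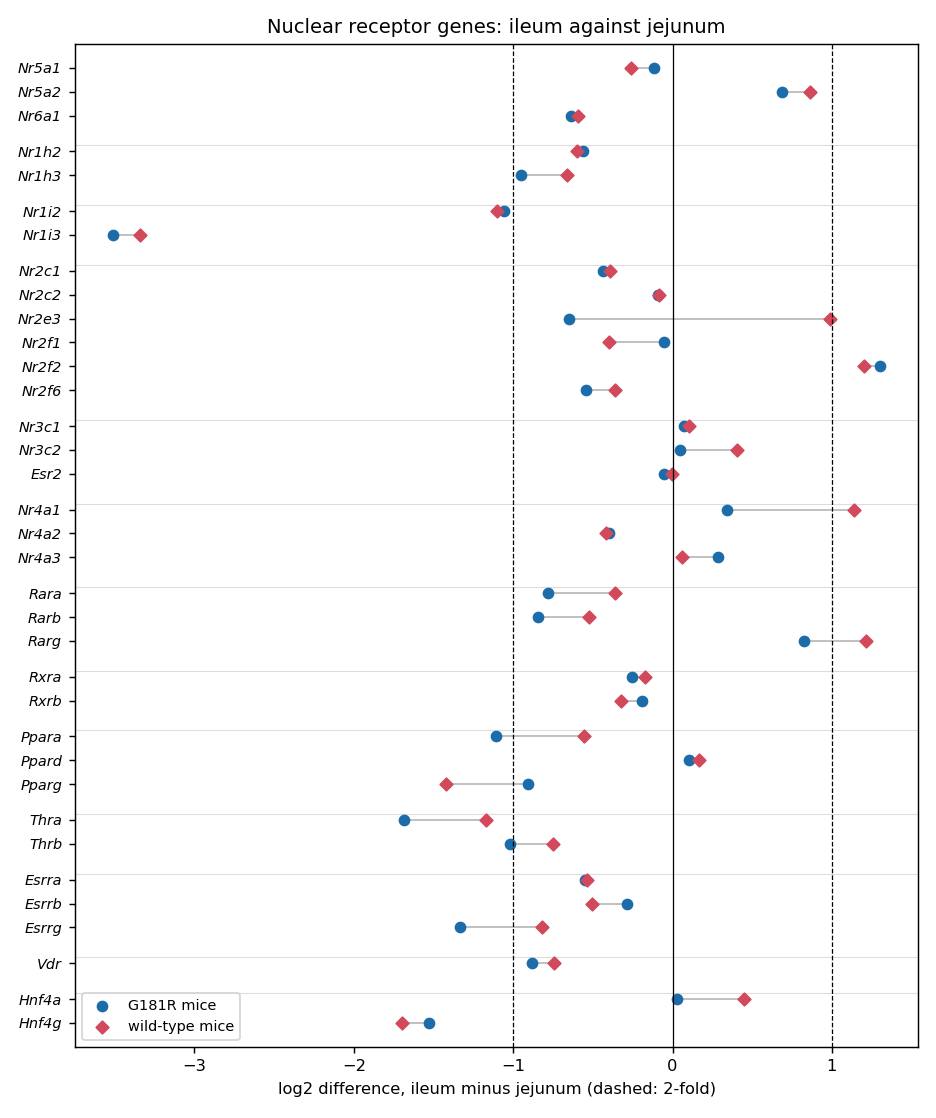
Log2 difference of ileum minus jejunum for the 35 measured nuclear receptor genes, grouped by subfamily, in G181R mice (blue circles) and wild-type mice (red diamonds), with 1 array per group and no error bars. Nr1i3 lies farthest left at -3.51 and -3.34, and Nr2f2 is the one gene past the right-hand 2-fold line in both genotypes.

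Nr1i3 (CAR) had the largest segment difference of the members. Its ileal signal was 11.4-fold below the jejunal one in G181R mice (log2 -3.51) and 10.1-fold below it in wild-type mice (-3.34). A second probe, whose positions span an intron, was well above background only in jejunum, which made it at least 24.6-fold lower in ileum in G181R mice and at least 19.4-fold lower in wild-type mice. The first probe lies at chr1:173147776-173147835 and the second spans chr1:173144301-173144529 in mm9. Their first 30 bases are shown because both give the same direction, and the RefSeq promoter window of the gene is shown with them (GRCm38.p6, chr1:171213720-171214019, plus strand). Its 1 motif match, in capitals, is CACGTG.
Nr1i3 probe 1: aagagaagagatagatcagctacaagagga
Nr1i3 probe 2: acaggagaccatgacagctatgctaacact
Nr1i3 window: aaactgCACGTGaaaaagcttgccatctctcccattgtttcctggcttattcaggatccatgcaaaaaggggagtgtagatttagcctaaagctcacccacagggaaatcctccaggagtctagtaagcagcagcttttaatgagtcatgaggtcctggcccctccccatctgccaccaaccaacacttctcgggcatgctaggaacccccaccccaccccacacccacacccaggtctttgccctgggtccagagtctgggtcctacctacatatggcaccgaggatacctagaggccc

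The second xenobiotic receptor, Nr1i2 (PXR), was lower in ileum, with a log2 difference of -1.06 in G181R mice and -1.10 in wild-type mice. Of 14 measured PXR and CAR targets, 12 were lower in ileum in each genotype, with a median of -2.81 in G181R mice and -1.91 in wild-type mice. Hnf4g was lower in ileum, at -1.53 in G181R mice and -1.70 in wild-type mice, while Hnf4a was at 0.03 and 0.45. The 17 HNF4 targets had a median of -1.34 in G181R mice and -1.21 in wild-type mice, and 9 of them were at least 2-fold lower in ileum in each genotype. Of all measured genes, 8.73% were that much lower in G181R mice and 9.11% in wild-type mice. Both target lists were chosen with earlier results of these data known, so their counts are a description only. Thra was at -1.69 in G181R mice and -1.17 in wild-type mice, and Thrb at -1.02 and -0.75.

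Among the lipid sensors, Ppara was lower in ileum, at -1.11 in G181R mice and -0.56 in wild-type mice, as was Pparg, at -0.90 and -1.42. Ppard differed little between segments, at 0.10 in G181R mice and 0.16 in wild-type mice. PPAR targets had a median of -1.45 in G181R mice (17 of 19 lower) and -0.91 in wild-type mice (15 of 18 lower). The LXR genes Nr1h3 and Nr1h2 were at -0.95 and -0.56 in G181R mice and at -0.66 and -0.60 in wild-type mice. Vdr was at -0.88 in G181R mice and -0.75 in wild-type mice, and its 6 measured targets had medians of -1.26 and -0.72. Esrra was at -0.55 in G181R mice and -0.54 in wild-type mice, and all 16 measured genes of its target list, itself included, were lower in ileum in each genotype. Esrrg was at -1.33 in G181R mice and -0.82 in wild-type mice.

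Fewer members were higher in ileum. Nr2f2 (COUP-TFII), known from stromal and vascular cells, had a scaled signal of 89.7 in G181R ileum, 95.6 in wild-type ileum, 36.4 in G181R jejunum and 41.6 in wild-type jejunum, a segment difference of 1.30 in G181R mice and 1.20 in wild-type mice. Rarg, whose values stand above, was at 0.83 in G181R mice and 1.21 in wild-type mice, and Nr5a2 at 0.69 and 0.86. Nr4a1 was at 0.34 in G181R mice and 1.14 in wild-type mice. With normexp correction these dim genes came closer together: Nr2f2 was at 0.80 in G181R mice and 0.74 in wild-type mice, Rarg at 0.48 and 0.77, and Nr4a1 at 0.25 and 0.69. Nr3c1 (0.07 and 0.10) and Esr2 (-0.05 and -0.00) were level between segments in G181R and wild-type mice. For Rara the probes lay far apart in the segment comparison: the brightest gave -0.78 in G181R mice and -0.36 in wild-type mice, and the other -0.21 and 0.37.

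By their brightest probes Nr2c1, Nr2f6, Nr4a2, Nr6a1, Rarb, Rxra, Rxrb, Nr2f1, Nr5a1 and Esrrb were all lower in ileum in both genotypes, from -0.85 for Rarb in G181R mice to -0.06 for Nr2f1 in G181R mice. The direction for Nr2c2 turned with the probe: its brightest gave -0.09 in G181R mice and -0.09 in wild-type mice, a second 0.18 and 0.24, and another -0.15 and 0.05. Nr4a3 and Nr3c2 were higher in both genotypes by their brightest probes, between 0.05 and 0.41, while further Nr3c2 probes gave -0.02 and -0.03 in G181R mice. Nr2e3 was at -0.65 in G181R mice and 0.99 in wild-type mice.

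Cell type markers also differed between the segments. Enterocyte markers were lower in ileum for 8 of 8 genes in each genotype, with a median of -2.35 in G181R mice and -1.75 in wild-type mice. They were far from even, from -9.83 for Lct to -0.31 for Fabp2 in wild-type mice, with Vil1 at -0.49 and Krt20 at -0.36. Vil1, Fabp1, Fabp2, Lct, Apoa4 and Alpi also stand on the HNF4, PPAR or thyroid hormone target lists, so the marker list is not separate from those. Epithelial markers were higher in ileum for 6 of 6 genes (0.38 and 0.53). B cell markers were higher in ileum, at 3.23 over 6 genes in G181R mice and 1.73 over 5 in wild-type mice. Smooth muscle markers were lower in ileum in G181R mice (-1.02) and higher in wild-type mice (1.47). Adipocyte markers were higher in ileum in both genotypes (1.73 and 2.71), and endothelial markers lower (-1.21 and -1.28). Macrophage and dendritic cell markers were lower for 7 of 7 genes in each genotype, at -0.72 in G181R mice and -1.01 in wild-type mice, and fibroblast markers for 5 of 7, at -1.02 and -0.53. Only 3 neutrophil markers were measured, with a median of -0.38 in G181R mice (2 lower and 1 higher) and -0.56 in wild-type mice (3 lower). The higher one in G181R mice was Ly6g, at 0.86. S100a8 and S100a9, seen there in ileum alone, and Cxcr2, seen there in jejunum alone, are outside that median, so it does not give a direction for neutrophils. Nerve and glia markers were at -0.16 in G181R mice and 0.46 in wild-type mice. The part of these cell types in the receptors' segment differences was not tested.

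The genotype difference in ileum minus that in jejunum shows where the segments departed from each other. Over the 35 measured members its median was -0.06, with 24 below and 11 above 0, and 1 member (Nr2e3, -1.64) was past 2-fold. Over 20543 genes the median was 0.01, and 3.81% were past 2-fold. After Nr2e3 the lowest values were those of Nr4a1 (-0.80), Ppara (-0.55), Thra (-0.51) and Esrrg (-0.51). The highest were those of Pparg (0.52) and Nr2f1 (0.34). These are differences of 4 single arrays, and the segments' genotype comparisons were not tested against each other.

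Where a gene had further probes well above background, their differences were compared with those of the brightest probe. The gaps by genotype lay well under 2-fold but were of the size of many members' genotype differences. In the ileal genotype comparison 23 such pairs of probes from 19 genes had a median gap of 0.116 and a largest gap of 0.282, and in jejunum 24 pairs from 19 genes had a median of 0.101 and a largest gap of 0.343. In the segment comparison the median gap was 0.0780 in G181R mice and 0.0951 in wild-type mice over 22 pairs each, and the Rara pair alone was more than 0.5 apart, by 0.571 and 0.734. Nr2c2 had probes of opposite sign there, as given above. The array has 1 probe alone for 11 members, among them Nr5a2, Ppard, Hnf4g, Nr1i2, Nr2f2 and Nr4a1. Another RefSeq gene entry overlaps 21 of the members, and whether a probe reads the member alone was checked by shared sequence only.

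**Figure D5:**
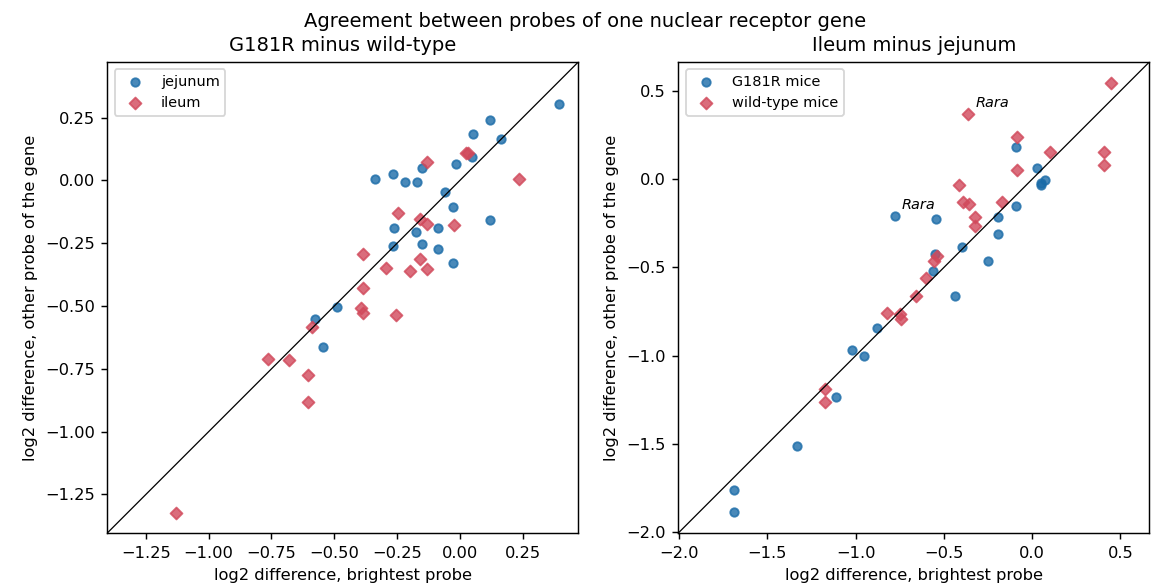
Log2 difference at a further probe of a nuclear receptor gene (vertical axis) against that at its brightest probe (horizontal axis), for probes well above background on both arrays of G181R minus wild-type (left) and ileum minus jejunum (right). Most points lie near the diagonal line of equal values. Rara is named as the gene with probes more than 0.5 apart, or of opposite sign with both past 0.2.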

How the data were processed

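The intensity values in the scanner files were made, per the file headers, by Agilent Feature Extraction 11.5.1.1 (the version also in the submitters' processing notes), which subtracted background and removed trends within each array without scaling between arrays. Other values, flags of 0 or 1 per spot for signal well above background, saturation and outliers, stand in the same deposited files. The deposited value table holds log2 values. For 95.8% of 56605 probes they match the scanner's log2 signal less an array constant, within 0.01, but 2356 probes hold a fill value, among them the chosen probes of Nr2c2 and Nr2f2, so it served only as an alternative.

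From the intensities, log2 values were averaged over the spots of a probe without outlier spots, and the 75th percentile of the array's non-control probes was subtracted (Python 3.11.15, numpy 2.4.6, pandas 2.3.3). The normexp alternative used limma 3.58.1 in R 4.3.3, with an offset of 50. Quantile normalization was computed in Python on the processed signals, with no offset. Members were found by the files' gene names, and other genes by RefSeq accession in the GRCm38.p6 table (32994 probes) or else by the files' names (23611 probes). Probe positions are mm9, per the file headers. The comparisons were G181R minus wild-type within each segment and ileum minus jejunum within each genotype, with no test, since each group is 1 array. Every member is accounted for. Full values are given for the 22 members that were at least 1.5-fold different by genotype, at least 2-fold by segment, or among the 8 brightest, and up to 3 genes at each end of a list may be named. The members and the 12 target and 10 marker lists were chosen with earlier results of these data known, and 6 of the 160 genes on the target lists stand on more than 1 list. The counting step was run on simulated data whose noise was the overall median SD between spots. That noise leaves out the wider spread of dim signals and any spread between pools, so the run checked the counting step only. All 4 arrays lay on 1 slide and 1 scan run. The number of arrays limits the precision. Exons and UTRs of the probes were not analysed here.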

Additional observations from a re-analysis of the deposited data

Results flagged for a closer look

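Of 35 members measured on all arrays compared, 10 had genotype differences of opposite sign in ileum and jejunum, and 1 had segment differences of opposite sign in the genotypes. In 2 members, Nr1h3 and Nr2e3, both values were also past a limit set from the spread between repeated spots at that signal (for genotype, 0.0829 in ileum and 0.0761 in jejunum for Nr1h3, and 0.365 and 0.519 for Nr2e3), which covers technical noise within an array only. Nr1h3 had a genotype difference (G181R minus wild-type, log2) of -0.13 in ileum and 0.16 in jejunum. Nr2e3 had a genotype difference of -1.07 in ileum and 0.56 in jejunum, and a segment difference (ileum minus jejunum) of -0.65 in G181R mice and 0.99 in wild-type mice. These differences between segments or genotypes were not tested, since each group is 1 array. Nr2e3 was dim on all 4 arrays, and each of its limits came from only 6 or 7 probes.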

How the results depend on the processing

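No paired analysis was possible because each comparison sets 1 array against 1 array, and no replicate could be left out. A fit of genotype over both segments with the segment as a block, which would leave 1 residual degree of freedom, was not run. Members at least 2-fold different numbered 0 in the jejunal genotype comparison (1 with no background filter, 2 at 1.5-fold), 2 in the ileal one (1 with normexp, 4 with no filter, 7 at 1.5-fold), 8 between segments in G181R mice (4 with normexp, 17 at 1.5-fold) and 8 in wild-type mice (5 with normexp, 16 at 1.5-fold). The members' median log2 difference was -0.15 in jejunum (normexp -0.057) and -0.22 in ileum (normexp -0.14, array median scaling -0.18, quantile -0.27). Between segments it was -0.44 in G181R mice (normexp -0.23, deposited table -0.55, array median scaling -0.38, no filter -0.34, mean of all probes -0.36, mean of probes well above background -0.39) and -0.39 in wild-type mice (normexp and mean of all probes -0.27, percentile over detected probes -0.33, no filter -0.34, mean of probes well above background -0.26). The median of the ileal minus the jejunal genotype difference was -0.06 (quantile -0.11, mean of probes well above background -0.13). All these medians kept their sign. The deposited table turned Nr2f2 between segments to -0.86 in G181R mice and -0.84 in wild-type mice, since its probe there holds a fill value on each array. The other causes were not tested. Under each of 9 alternatives, 24 of 24 medians of the target lists by genotype kept their sign, but in ileum 10 of 12 and in jejunum 9 of 12 moved by over 1.5 times under at least 1 of them. In ileum the vitamin D receptor list went to -0.34 with no filter (main value -0.85), the thyroid hormone list to -0.18 with no filter (-0.40), the glucocorticoid list to -0.30 with the deposited table (-0.48), the retinoic acid list to -0.04 with normexp (-0.25), the NR4A list to -0.05 with the mean of all probes (-0.32), and the NR5A list to between -0.35 and -0.02 (-0.13). In jejunum the LXR list went to -0.14 with normexp (-0.27), the thyroid hormone list to -0.34 with no filter (-0.09), the NR5A list to -0.51 with no filter (-0.18), and the vitamin D receptor list to between -0.54 and -0.14 (-0.28). The PPAR and the PXR and CAR lists stayed within that range in both segments. Signal near background limits Nr2e3, Rarb and Esrrb, and no value here measures variation between mice.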
